A study of Homo sapiens with 8 samples.

Results

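The 39 genes described here belong to the unfolded protein response and to the ATF4 branch of the integrated stress response, and they were taken by symbol from a table of 23368 gene symbols. All 39 had a row, and all 39 passed the filter on low counts that left 13395 tested genes. They were read in 4 sets: 16 chaperones and folding enzymes of the endoplasmic reticulum (ER), 6 genes of ER-associated degradation, 4 genes for the stress sensors and the factor XBP1, and 13 genes around ATF4 and its partner CHOP. The cells were of the line MDA-MB-231, long established from a human breast tumour and lacking hormone receptors and HER2 amplification. They had received, with the reagent INTERFERin, siE1, siE2 or siE3, which are 3 small interfering RNAs against ESRRA (the gene of the orphan nuclear receptor ERRα), or the control siRNA siC. Each siRNA had 2 libraries, 8 in all, so every group is the same line carrying a transfected siRNA and no untransfected cells were analysed here. The sources used here give neither the time after transfection nor the siRNA dose, and nothing in them ties the replicates to separate cultures. The p-values therefore rest on a library-to-library spread that could be technical only.

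The ER folds secreted and membrane proteins, and the chaperone BiP (HSPA5) holds 3 sensors inactive at its membrane: ATF6, IRE1 (ERN1) and PERK (EIF2AK3). When unfolded proteins draw BiP away, ATF6 is cut into a transcription factor, IRE1 splices XBP1 mRNA into the form that encodes an active factor, and PERK phosphorylates the initiation factor eIF2. That phosphorylation slows translation in general but favours ATF4 protein, which induces amino acid genes and CHOP (DDIT3), and PERK shares this output with other eIF2 kinases that sense amino acid shortage, heme loss or double-stranded RNA. Much of this control lies in splicing, cleavage and translation, which counts per gene do not show. In bulk RNA, fewer cells with a transcript and less of it per cell cannot be told apart.

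Promoter windows from RefSeq (GRCh38.p14, from 250 bases before to 50 after each annotated start) were matched to 37 of the 39 members, 10 of them with more than 1 window, and both strands were searched for 4 elements. The ER stress response element (ERSE), written CCAAT, any 9 bases and CCACG, is known to join NF-Y on CCAAT with ATF6 or XBP1 on CCACG. It was held by 7 of the 37 members, against 27 of all 35116 windows (0.0769%). For each element, members are counted by gene over any of their windows. The background is counted by window and includes the members' own, so these are unlike rates. The sites are shown because members that share this element were called in both directions, as were tested genes in general. The element is in capitals and read 5′ to 3′ on its own strand.
HSPA5, chr9:125241386-125241414, minus strand: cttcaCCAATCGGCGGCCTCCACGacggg
HSP90B1, chr12:103930211-103930239, plus strand: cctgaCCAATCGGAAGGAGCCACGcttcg
HSP90B1, chr12:103930316-103930344, minus strand: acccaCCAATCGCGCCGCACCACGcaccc
CALR, chr19:12938379-12938407, minus strand: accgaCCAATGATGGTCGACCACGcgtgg
CANX, chr5:179698773-179698801, plus strand: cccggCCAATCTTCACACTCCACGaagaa
PDIA6, chr2:10812848-10812876, minus strand: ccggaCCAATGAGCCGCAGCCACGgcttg
CRELD2, chr22:49918549-49918577, minus strand: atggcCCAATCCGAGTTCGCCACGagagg
XBP1, chr22:28800598-28800626, minus strand: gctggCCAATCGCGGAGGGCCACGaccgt

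The shorter ERSE-II, written ATTGG, any 1 base and CCACG, ends in the same CCACG and was found in HERPUD1, HYOU1 and SDF2L1, against 19 of all windows (0.0541%). The XBP1-type element TGACGTGG was found in HYOU1 only among the members, where it overlaps an ERSE-II, against 256 windows (0.729%). The element TGATGNAA, the core to which ATF4 and C/EBP partners are known to bind, was found in 3 of the 13 ATF4-CHOP genes and in HERPUD1, against 1270 windows (3.62%). Its sites in ASNS, CHAC1 and CEBPG are shown beside their calls against siC. ASNS was called lower with siE1 and siE2 and higher with siE3, and each of these calls was lost when certain single libraries were left out. CEBPG was called lower with siE2 only and CHAC1 was called with none. Whether these genes differed from each other in response was not tested.
ASNS, chr7:97872464-97872481, minus strand: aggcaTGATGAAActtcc
CHAC1, chr15:40953257-40953274, minus strand: aggagTGATGCAAcggca
CEBPG, chr19:33374066-33374083, plus strand: gcgtcTGATGCAAcctgc
A match only says that the letters stand in the window.

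The libraries held 21835995 to 25880548 counts, and levels below are CPM, counts scaled to a common library total with TMM factors. ESRRA stood at 10.3 and 10.5 CPM with siE1, 8.86 and 7.25 CPM with siE2 and 8.55 and 8.31 with siE3, against 62.9 and 64.8 with siC, so 16.3%, 12.6% and 13.2% of its siC level remained. Markers picked as high in MDA-MB-231 (8 genes, VIM and CD44 among them) summed to 8676 to 9837 CPM over the libraries. The 6 picked as absent or low (ESR1, PGR, ERBB3, CDH1, GATA3 and FOXA1) summed to 8.65 to 12.2 CPM. Of these, 3 passed the filter on low counts, while PGR was at 0 counts and ESR1 and CDH1 at no more than 3. Among the blood markers, CD3E and HBB were at 0 in every library and PTPRC at no more than 2 counts. The blood list's sum was 416 to 432 CPM with siE1, 290 to 295 with siE2, 322 to 327 with siE3 and 214 to 226 with siC, nearly all of it CD68, a lysosomal gene that such lines also express. Endothelial markers summed to 1.96 to 4.28 CPM and fibroblast markers, with DCN and LUM at 0, to 7.07 to 13.6 CPM. Chi-square over degrees of freedom is near 1 for sampling noise alone. It was 3.47 between the siC libraries, 3.21 between those of siE1 and 5.12 between those of siE3. No value was obtained for the pair of siE2 libraries. Between siRNAs it was 40.6 to 74.0 over the pairs with a value, and some pairs had none.

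A large part of all genes was called, so each count is read against that background. The tested genes were not matched to the members by level, and 16 of the 39 members averaged over 100 CPM. With siE1, 24 of the 39 members passed (17 higher, 7 lower; 61.5%) at an edgeR adjusted p below 0.05, against 50.3% of all tested genes. With siE2, 30 passed (20 higher, 10 lower; 76.9%), against 56.4% of tested genes. With siE3, 16 passed (14 higher, 2 lower; 41.0%), against 42.1%, and without siC replicate 1 that count was 10. In the average of the 3 siRNAs against siC, 22 passed (15 higher, 7 lower), against 51.1%. Most of these differences were small: calls of at least 1.5-fold were 3 higher and 2 lower with siE1, 3 higher and 1 lower with siE2, 1 higher and 0 lower with siE3, and 1 higher and 0 lower in the average. The shares of all tested genes called past that fold were 8.22% higher and 6.52% lower with siE1, 11.4% and 6.56% with siE2, 5.96% and 4.01% with siE3, and 6.75% and 2.78% in the average. The authors' deposited table gives an adjusted p below 0.05 to 19, 27 and 9 members, and each of these was also called here with the same sign. Calls made here and not there include ASNS with each siRNA, SEL1L and STC2 with siE1 and DDIT3 with siE2. CALR, PDIA3 and CANX with siE3 are also among them.

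**Figure D1:**
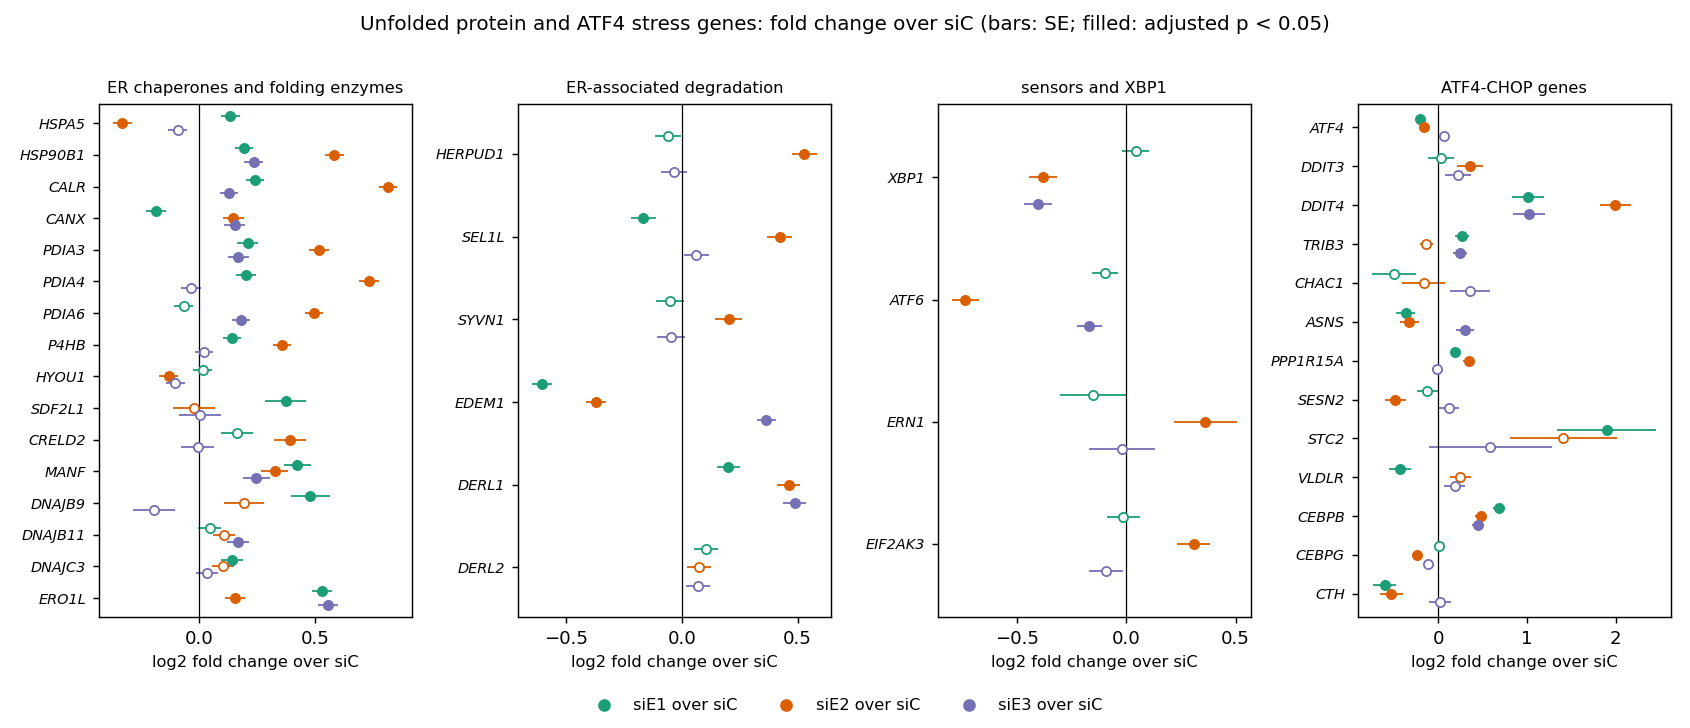
Log2 fold change over siC (x axis, with a scale of its own in each panel) of all 39 members with siE1, siE2 and siE3, bars giving the SE and filled points an edgeR adjusted p below 0.05. The chaperone points lie mostly to the right of 0, and siE2 gives the farthest of them, CALR at 0.82, while the ATF4-CHOP points lie on both sides, with DDIT3, DDIT4, CEBPB and STC2 to the right with all 3 siRNAs.

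More chaperones and folding enzymes were called higher than lower with each siRNA. Of the 16 genes, 11 were higher and 1 lower with siE1, 10 higher and 2 lower with siE2, and 8 higher and 0 lower with siE3, where the shares over all tested genes were 24.5% higher and 25.8% lower, 27.9% and 28.5%, and 21.3% and 20.8%. The median log2 fold change of the 16 was 0.18, 0.26 and 0.08, beside -0.01, 0.01 and 0.00 over all tested genes. HSP90B1, CALR, PDIA3, MANF and ERO1L were called higher with all 3 siRNAs, 5 of 16, against 8.73% of tested genes. Past 1.5-fold, 0 of the 16 were higher with siE1, 2 with siE2 and 0 with siE3, against 8.22%, 11.4% and 5.96% of tested genes.

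CALR encodes calreticulin, the soluble lectin chaperone of glycoproteins. CALR stood at 865 and 890.4 CPM with siE1, 1339 and 1277 with siE2, 810.1 and 815 with siE3, against 738 and 747 with siC. All 6 ESRRA siRNA libraries lay above both siC libraries, and both siE2 libraries lay far above the rest. The log2 fold change was 0.24 (SE 0.0394, edgeR adjusted p = 1.2e-04) with siE1, 0.82 (SE 0.0396, edgeR adjusted p = 3.5e-10) with siE2 and 0.13 (SE 0.0395, edgeR adjusted p = 0.015) with siE3. CALR was higher with siE2 than with siE3 by 0.69 (edgeR adjusted p = 2.7e-09), where the ESRRA difference was -0.06 (SE 0.113, edgeR adjusted p = 0.67). The siE3 call did not pass without siC replicate 1 or without siC replicate 2 (edgeR adjusted p = 0.090 and 0.057).

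PDIA4, a protein disulfide isomerase, was higher with siE2 and, by less, with siE1. PDIA4 levels were 177 and 182 CPM with siE1, 259.9 and 259 with siE2, 155 and 149 with siE3, against 154 and 158 with siC. The siE2 libraries were the highest, the siE1 libraries stood between, and those of siE3 overlapped siC. Against siC the log2 fold change was 0.20 (edgeR adjusted p = 0.0014) with siE1, 0.73 (SE 0.0434, edgeR adjusted p = 2.3e-09) with siE2 and -0.03 (edgeR adjusted p = 0.56) with siE3. HSP90B1 (GRP94, the Hsp90 of the ER) was just under 1.5-fold higher with siE2, at 0.58, and at 0.19 and 0.23 with siE1 and siE3. PDIA3, the isomerase that works with calreticulin and calnexin, was at 0.21, 0.52 and 0.17, where the siE3 value did not pass without siC replicate 1 or siE3 replicate 2 (edgeR adjusted p = 0.081 and 0.057). PDIA6 and P4HB, further disulfide isomerases, were at 0.50 and 0.36 with siE2. PDIA6 also rose with siE3 (0.18) and P4HB with siE1 (0.14, edgeR adjusted p = 0.057 without siC replicate 1).

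HSPA5, the Hsp70 of the ER and the best-known readout of the unfolded protein response, was lower with siE2, where most of the set was higher. Its level was 649.6 and 651 CPM with siE1, 456 and 486 with siE2, 551 and 559.6 with siE3, against 586 and 599 with siC. The siE1 libraries lay above siC, those of siE3 below it and those of siE2 lowest, with no overlap between any of the 4 groups. On the log2 scale the difference from siC was 0.13 (SE 0.0415, edgeR adjusted p = 0.014) with siE1, -0.33 (SE 0.0417, edgeR adjusted p = 6.7e-06) with siE2 and -0.09 (edgeR adjusted p = 0.085) with siE3. The siE1 call did not pass without siC replicate 1, siE1 replicate 1 or siE1 replicate 2 (edgeR adjusted p = 0.10, 0.065 and 0.075), while the difference of siE1 over siE2, 0.47 (edgeR adjusted p = 1.8e-07), passed in every such set. HYOU1, the exchange factor that works with BiP, was also lower with siE2 (-0.13, edgeR adjusted p = 0.012), a call lost without siC replicate 2 (0.093), siE2 replicate 2 (0.11) or TMM scaling (0.060 with library size only).

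The other chaperones varied in the siRNAs with which they were called. ERO1L, the oxidase that recharges disulfide isomerases, was high with siE1 and siE3 (0.53 and 0.56) and less so with siE2 (0.15, edgeR adjusted p = 0.060 without siC replicate 1), and siE2 lay below siE3 by -0.40 (edgeR adjusted p = 1.7e-06). MANF, an ER protein that can be secreted under stress, rose by 0.42, 0.33 and 0.25. SDF2L1 and DNAJB9, both partners of BiP, rose with siE1 (0.37 and 0.48), and their values were -0.02 and 0.19 with siE2 and 0.00 and -0.20 with siE3. CANX, the membrane-bound lectin chaperone, was lower with siE1 (-0.19) and higher with siE2 and siE3 (0.15 each); the siE2 value did not pass without siC replicate 1 or siE2 replicate 1 (edgeR adjusted p = 0.066 and 0.088), nor the siE3 value without siC replicate 1 or siE3 replicate 2 (0.071 and 0.13). CRELD2 rose with siE2 (0.39). Of the J-domain partners of BiP, DNAJB11 rose with siE3 (0.17) and DNAJC3 with siE1 (0.14), but the DNAJB11 call did not pass without siC replicate 2 or siE3 replicate 2 (edgeR adjusted p = 0.063 and 0.073). The DNAJC3 call did not pass without siC replicate 1, siC replicate 2 or siE1 replicate 2 (edgeR adjusted p = 0.081, 0.10 and 0.17).

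The 7 members with an ERSE in the windows above were called in both directions with each siRNA. So were tested genes in general, 24.5% higher and 25.8% lower with siE1, 27.9% and 28.5% with siE2, 21.3% and 20.8% with siE3. With siE2, CALR, HSP90B1, PDIA6, CRELD2 and CANX were higher (0.82 down to 0.15), while HSPA5 and XBP1 were lower (-0.33 and -0.38). With siE3, 4 of the 7 were higher and XBP1 lower (-0.41). With siE1, 3 were higher and CANX lower, and no value passed 0.24.

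**Figure D2:**
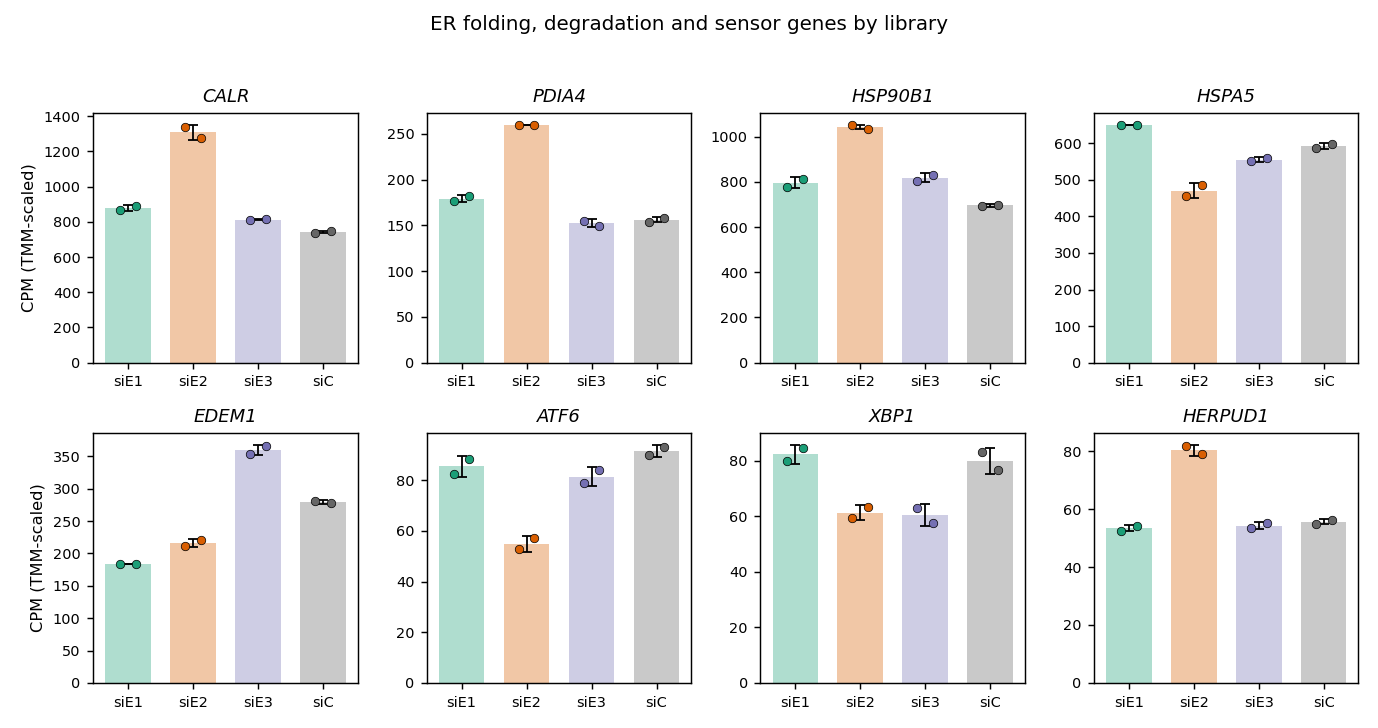
CPM after TMM scaling (y axis) of 8 members of the ER arms with siE1, siE2, siE3 and siC, with points for the 2 libraries, bars for their mean and error bars for the SD. CALR, PDIA4, HSP90B1 and HERPUD1 are highest with siE2, where HSPA5 and ATF6 are lowest, and EDEM1 is highest with siE3.

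ER-associated degradation returns misfolded proteins to the cytosol for the proteasome, and its 6 genes gave 1 higher and 2 lower with siE1, 4 higher and 1 lower with siE2, and 2 higher and 0 lower with siE3, beside shares over all tested genes of 24.5% higher and 25.8% lower, 27.9% and 28.5%, and 21.3% and 20.8%. EDEM1, which hands mannose-trimmed glycoproteins to this route, had 184 and 184 CPM with siE1, 212 and 220.2 with siE2, 354 and 366 with siE3, against 281 and 277 with siC. It was thus below siC with siE1 and siE2 and above it with siE3, with no overlap between groups. Its log2 fold change over siC was -0.60 (SE 0.0424, edgeR adjusted p = 2.0e-08), -0.37 (SE 0.0422, edgeR adjusted p = 2.4e-06) and 0.37 (SE 0.0416, edgeR adjusted p = 4.7e-06), and siE1 lay below siE3 by -0.97 (edgeR adjusted p = 1.6e-10).

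HERPUD1, a membrane protein that organises the degradation complex, rose with siE2 (0.53, edgeR adjusted p = 8.5e-07) and was at -0.06 and -0.03 with siE1 and siE3. SEL1L, the scaffold of the HRD1 ligase, was lower with siE1 (-0.17) and higher with siE2 (0.42), and SYVN1, the ligase HRD1 itself, was higher with siE2 (0.20). The siE1 value of SEL1L did not pass without siC replicate 1 or siE1 replicate 1 (edgeR adjusted p = 0.17 and 0.099), nor SYVN1 with siE2 without siC replicate 2 or siE2 replicate 1 (0.067 and 0.071). HERPUD1, SEL1L and SYVN1 were each called higher with siE2 than with siE3 (0.56, 0.36 and 0.25), and each was lower with siE1 than with siE2 (-0.59, -0.59 and -0.26). Of the derlins, channel proteins of the same route, DERL1 rose with all 3 siRNAs (0.20, 0.46 and 0.49), and DERL2 was not called with any (0.10, 0.07 and 0.07), although its 6 libraries all lay above siC.

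Of the 4 sensor and XBP1 genes, 2 were higher and 2 lower with siE2, 2 were lower with siE3 and 0 were called with siE1. Over all tested genes the shares were 27.9% higher and 28.5% lower with siE2, 21.3% and 20.8% with siE3, and 24.5% and 25.8% with siE1. ATF6, the sensor that becomes a transcription factor, stood at 82.6 and 88.3 CPM with siE1, 52.8 and 57.1 with siE2, 78.8 and 84.1 with siE3, against 89.8 and 93.3 with siC. It was the only member whose 6 ESRRA siRNA libraries all lay below both siC libraries, which held for 15.4% of tested genes, and its siE2 libraries stood apart from the other 4. The log2 fold change was -0.10 (edgeR adjusted p = 0.17), -0.74 (SE 0.0604, edgeR adjusted p = 7.5e-08) and -0.17 (edgeR adjusted p = 0.030), the last lost without siC replicate 1, siC replicate 2 or siE3 replicate 1 (edgeR adjusted p = 0.052, 0.17 and 0.18). siE2 lay below siE3 by -0.57 (edgeR adjusted p = 1.9e-06).

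XBP1 encodes the factor that IRE1 activates by splicing, which a count per gene cannot show. It had 79.9 and 84.8 CPM with siE1, 59.6 and 63.3 with siE2, 63.2 and 57.6 with siE3, against 83.2 and 76.8 with siC. siE1 overlapped siC, and the siE2 and siE3 libraries overlapped each other below both. Against siC the log2 fold change was 0.04 (edgeR adjusted p = 0.60), -0.38 (SE 0.0643, edgeR adjusted p = 1.2e-04) and -0.41 (SE 0.0645, edgeR adjusted p = 1.2e-04). The IRE1 gene ERN1 and the PERK gene EIF2AK3 rose with siE2 only among the 3 siRNAs, by 0.36 and 0.31. Both were higher with siE2 than with siE3 (0.38 and 0.40, edgeR adjusted p = 0.040 and 4.2e-04), but for ERN1 this was lost with DESeq2 (adjusted p = 0.14) and without siE2 replicate 1 or siE3 replicate 2 (edgeR adjusted p = 0.27 and 0.23). ERN1 stood at 4.70 to 7.96 CPM, and its siE2 call did not pass with DESeq2 (adjusted p = 0.15) or without siC replicate 1, siC replicate 2 or siE2 replicate 1 (edgeR adjusted p = 0.072 to 0.28).

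The ATF4-CHOP genes were called in both directions with siE1 and siE2 and only higher with siE3. Of the 13 genes, 5 were higher and 4 lower with siE1, 4 higher and 5 lower with siE2, and 4 higher and 0 lower with siE3. Over all tested genes the shares were 24.5% higher and 25.8% lower for siE1, 27.9% higher and 28.5% lower for siE2, and 21.3% higher and 20.8% lower for siE3. In siE1 replicate 1, siE2 replicate 1, siE3 replicate 2 and siC replicate 2, 5 of the 13 genes (DDIT3, DDIT4, TRIB3, ASNS and PPP1R15A) were each higher than in the other library of the group, and the part of this in the results was not tested. The median log2 fold change was 0.00, -0.14 and 0.22, and single siC libraries moved it: without siC replicate 1 it was -0.15 with siE1 and 0.05 with siE3. Only DDIT4 and CEBPB were called with all 3 siRNAs in the same direction, 2 of 13, against 8.73% of tested genes for higher calls.

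ATF4 itself, the transcription factor of the branch, had 148 and 151 CPM with siE1, 157 and 152 with siE2, 179 and 183 with siE3, against 168 and 177 with siC. The siE1 and siE2 libraries lay below siC and the siE3 libraries above it. On the log2 scale the difference from siC was -0.21 (SE 0.0461, edgeR adjusted p = 0.0016), -0.16 (SE 0.0461, edgeR adjusted p = 0.0074) and 0.06 (edgeR adjusted p = 0.28), and siE1 was below siE3 by -0.27 (edgeR adjusted p = 1.8e-04). The siE2 call did not pass without siC replicate 2 or siE2 replicate 2 (edgeR adjusted p = 0.089 and 0.076). ATF4 is controlled largely in translation, which these counts do not measure.

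DDIT3 (CHOP), the factor linked to cell death under lasting stress, had 9.31 and 7.49 CPM with siE1, 10.7 and 10.2 with siE2, 9.05 and 9.99 with siE3, against 7.03 and 9.26 with siC. The siE1 libraries overlapped siC, as did those of siE3, and both siE2 libraries lay above it. Its log2 fold change over siC was 0.03 (edgeR adjusted p = 0.87), 0.36 (SE 0.143, edgeR adjusted p = 0.044) and 0.22 (edgeR adjusted p = 0.24). The siE2 call did not pass with DESeq2 (adjusted p = 0.10), without siC replicate 1 (edgeR adjusted p = 0.38) or without either siE2 library (0.15 and 0.087). DDIT3 overlaps MARS, a tRNA synthetase gene that fell with siE2 (-0.64), and with the strand setting not given their reads cannot be told apart.

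DDIT4 (REDD1), an inhibitor of mTORC1 that stress, hypoxia and glucocorticoids are known to induce, had the largest fold change of the 39 with siE2. DDIT4 levels were 53.9 and 40.0 CPM with siE1, 107 and 77.5 with siE2, 40.0 and 53.9 with siE3, against 19.7 and 26.4 with siC. All 6 libraries lay above both siC libraries and both siE2 libraries above the other 4, although the libraries within each group differed widely for this gene. The log2 fold change was 1.01 (SE 0.183, edgeR adjusted p = 2.8e-04), 2.00 (SE 0.176, edgeR adjusted p = 1.6e-07) and 1.02 (SE 0.184, edgeR adjusted p = 3.5e-04). siE2 was above siE3 by 0.97 (edgeR adjusted p = 1.5e-04), and siE1 and siE3 differed by -0.01 (SE 0.169, edgeR adjusted p = 0.97).

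CEBPB, a C/EBP partner of ATF4, had 47.8 and 44.7 CPM with siE1, 40.8 and 39.3 with siE2, 38.3 and 39.9 with siE3, against 29.8 and 27.8 with siC. All 6 libraries again lay above siC, with siE1 highest. Against siC the log2 fold change was 0.68 (SE 0.0678, edgeR adjusted p = 8.0e-07), 0.48 (edgeR adjusted p = 2.7e-05) and 0.44 (edgeR adjusted p = 1.0e-04). Its relative CEBPG, which dimerises with ATF4, was lower with siE2 (-0.25, edgeR adjusted p = 0.0018) and at 0.00 and -0.12 with siE1 and siE3.

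CTH and ASNS were lower with siE1 and siE2 than with siE3. CTH, which makes cysteine from cystathionine, had 6.05 and 6.99 CPM with siE1, 7.57 and 6.21 with siE2, 9.51 and 10.6 with siE3, against 10.2 and 9.77 with siC. The siE1 and siE2 libraries lay below siC, and the siE3 libraries overlapped it. On the log2 scale the difference from siC was -0.61 (SE 0.131, edgeR adjusted p = 0.0013), -0.53 (SE 0.131, edgeR adjusted p = 0.0027) and 0.02 (edgeR adjusted p = 0.93). ASNS, asparagine synthetase, showed the same order, at -0.37 (edgeR adjusted p = 0.0082), -0.33 (edgeR adjusted p = 0.014) and 0.30 (edgeR adjusted p = 0.024). Each of these ASNS calls depended on single libraries: without siC replicate 2 those of siE1 and siE2 did not pass (edgeR adjusted p = 0.16 and 0.24), and without siC replicate 1 that of siE3 did not (0.27). Each was also lost without replicate 2 of its own siRNA (edgeR adjusted p = 0.091, 0.11 and 0.16). The differences between siRNAs, -0.67 for siE1 minus siE3 and -0.63 for siE2 minus siE3 (edgeR adjusted p = 7.0e-05 and 1.2e-04), passed in every set with a library left out.

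STC2, a secreted glycoprotein, was close to the limit of detection, with 33 and 15 counts with siE1, 17 and 16 with siE2, 10 and 8 with siE3, against 2 and 10 with siC. The siE1 and siE2 libraries lay above both siC libraries and those of siE3 did not. Its log2 fold change of 1.90 with siE1 (SE 0.558, edgeR adjusted p = 0.010) was its only call against siC. It was 3.38 without siC replicate 2, and it did not pass without siC replicate 1 (1.22, edgeR adjusted p = 0.10) or siE1 replicate 1 (1.11, edgeR adjusted p = 0.17). TRIB3, a pseudokinase that restrains ATF4, rose with siE1 and siE3 (0.27 and 0.24) and was at -0.14 with siE2. PPP1R15A (GADD34), which brings the phosphatase back to eIF2, rose with siE1 and siE2 (0.19 and 0.34) and was at -0.02 with siE3. SESN2, a leucine sensor upstream of mTORC1, fell with siE2 (-0.49), and VLDLR, a lipoprotein receptor, fell with siE1 (-0.43). CHAC1, which degrades glutathione, was not called against siC (-0.50, -0.16 and 0.35), and siE1 lay below siE3 by -0.85 (edgeR adjusted p = 0.0086, but 0.15 without siE3 replicate 2). Without siC replicate 1 the calls of TRIB3 with siE1 and siE3, of PPP1R15A with siE1 and of VLDLR with siE1 did not pass (edgeR adjusted p = 0.062, 0.099, 0.18 and 0.069). Without siE1 replicate 1 the siE1 calls of TRIB3, PPP1R15A and VLDLR did not pass either (edgeR adjusted p = 0.12, 0.14 and 0.099), nor that of TRIB3 with siE3 without siE3 replicate 2 (0.071).

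**Figure D3:**
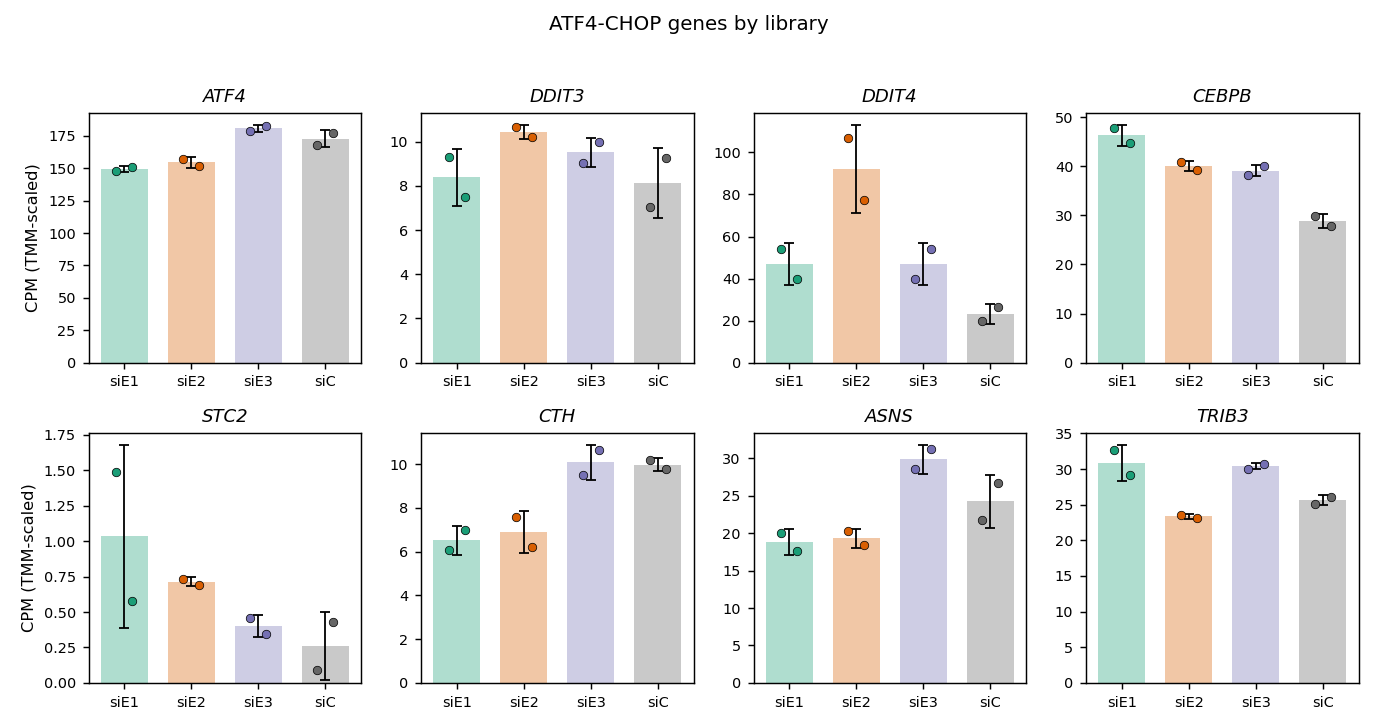
CPM after TMM scaling (y axis) of 8 ATF4-CHOP genes with siE1, siE2, siE3 and siC, with points for the 2 libraries, bars for their mean and error bars for the SD. DDIT4 and CEBPB are above siC in all 6 libraries, while CTH and ASNS are lower with siE1 and siE2 and not with siE3.

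Set against each other, the chaperones had the higher median with siE1 and siE2, while the order with siE3 turned on siC replicate 1. For each library, the median over the 16 chaperones and the median over the 13 ATF4-CHOP genes were taken of log2 CPM minus the mean of the siC libraries. The chaperone median was 0.15 and 0.20 in siE1 libraries, 0.24 and 0.27 in siE2 libraries and 0.06 and 0.09 in siE3 libraries, against -0.01 and 0.01 in siC libraries. The ATF4-CHOP median was 0.02 and -0.11 in siE1 libraries, -0.09 and -0.15 in siE2 libraries and 0.17 and 0.26 in siE3 libraries, against -0.06 and 0.06 in siC libraries. The chaperone median thus exceeded the ATF4-CHOP median by 0.13 and 0.31 with siE1 and by 0.34 and 0.42 with siE2, and lay under it with siE3 (-0.11 and -0.17). Without siC replicate 1 the order with siE3 turned round, with a median log2 fold change of 0.108 for the chaperones and 0.0460 for the ATF4-CHOP genes. These medians are a description of chosen genes, and no test was made of them.

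**Figure D4:**
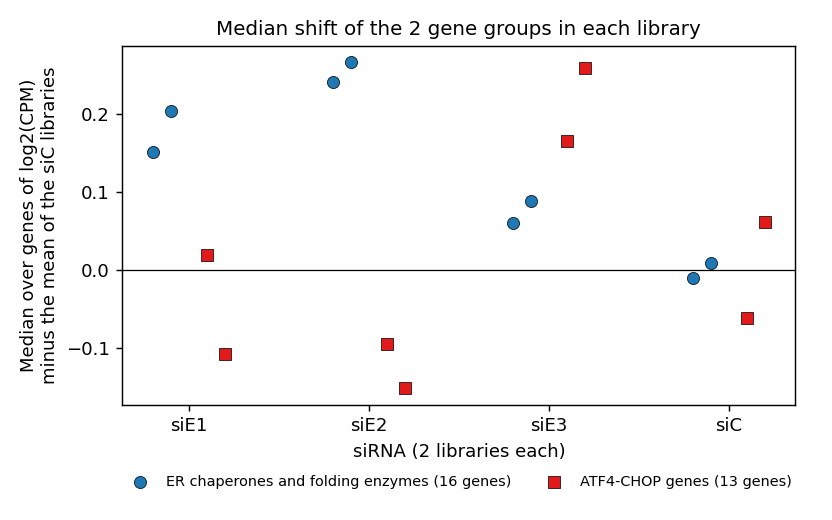
Median log2 shift from the siC mean (y axis) of the chaperones (circles) and the ATF4-CHOP genes (squares) in each library with siE1, siE2, siE3 and siC. Circles lie above squares with siE1 and siE2 and below them with siE3, an order that turned round with siE3 without siC replicate 1 (0.108 for the chaperones and 0.0460 for the ATF4-CHOP genes).

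Between siRNAs, 29 of the 39 members differed for siE1 against siE2, 23 for siE1 against siE3 and 24 for siE2 against siE3, where 57.1%, 48.7% and 48.5% of all tested genes were called. Past 1.5-fold, 1 member was higher and 4 were lower for siE1 against siE2 (tested genes 7.69% and 11.4%), 2 higher and 5 lower for siE1 against siE3 (6.62% and 7.02%), and 3 higher and 3 lower for siE2 against siE3 (8.03% and 4.6%). Members called higher with all 3 siRNAs numbered 8 (20.5%, against 8.73% of tested genes) and members called lower with all 3 numbered 0 (against 7.42%). Of the 39, 11 had all 6 ESRRA siRNA libraries above both siC libraries (28.2%), against 15.1% of tested genes. HSPA5, CANX, SEL1L, EDEM1 and ASNS were called higher with 1 siRNA and lower with another, 5 of 39 (12.8%), against 10.7% of tested genes. The 3 comparisons against siC share the siC libraries.

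Other genes of the same pathways, from lists that do not repeat the members except DNAJC3 and ERO1L, gave a mixed picture in the average of the 3 siRNAs, where 23.4% of tested genes were higher and 27.7% lower. Of 25 other ER folding factors 7 rose and 4 fell (median 0.08, beside -0.01 for all tested genes), among them the torsin TOR1B (0.62), the cyclophilin PPIB (0.29) and the lectin MLEC (0.32), with MLEC at 0.71 under siE2, and the prolyl isomerase FKBP14 fell (-0.75). Of 26 other degradation genes 6 rose and 9 fell, with EDEM3, a relative of EDEM1, at 0.66 and higher with each siRNA. Of 30 genes of ER translocation and secretion 6 rose and 8 fell, with TRAM1 at 0.59, SEC63 at 0.44 and SEC11C at -0.48. Of 17 other sensors and regulators 6 rose and 6 fell, and TMBIM6, an ER membrane protein that restrains IRE1, fell with siE2 (-0.88) and was not called with siE1 or siE3.

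Of 43 tested further ATF4 targets 8 rose and 17 fell (median -0.13), with the tRNA synthetase genes YARS (-0.62) and MARS (-0.38) and the proline enzyme gene ALDH18A1 (-0.54) lower and NDRG1 (0.70) higher. With siE3, where no ATF4-CHOP member fell, 6 of these 43 rose and 14 fell (median -0.11). Of all tested genes 21.3% were higher and 20.8% lower with siE3 (median -0.002). Of 19 genes for eIF2, its kinases, its phosphatase and eIF2B 3 rose and 10 fell, with EIF2AK2 (PKR, the kinase that senses double-stranded RNA) at -0.97 under siE2 and not called with siE1 or siE3. Of 9 death genes linked to CHOP, ERO1L included, 3 rose and 2 fell: ERO1L, BBC3 (PUMA, 0.64) and PMAIP1 (NOXA, 0.59) were among the higher genes and CASP4 (-0.41) among the lower.

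Chaperones outside the ER were more often called lower than higher in the average. All tested genes were also called lower (27.7%) more often than higher (23.4%), with a median of -0.01. Of 22 tested cytosolic heat shock genes 5 rose and 10 fell (median -0.19), with HSPB1 at 1.05 and BAG3 at 0.37 against HSPA4 at -0.39 and HSP90AB1 at -0.38. Of 13 mitochondrial chaperones and proteases 1 rose and 9 fell (median -0.26), with HSPA9 at -0.67, GRPEL1 at -0.60, TRAP1 at -0.57 and DNAJA3 at -0.51, and each of these 4 fell with each siRNA. The difference between these lists and the ER chaperones was not tested.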

How the data were processed

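RNA-seq was done on 8 libraries. Per the submitters' processing notes, TopHat 1.3.3, HTSeq and DESeq were used with genome build hg19; the annotation, the strand setting and any filters are not stated there. The authors' deposited table holds raw counts per symbol for each library. Per the file headers, it also holds a fold (a linear ratio) and an adjusted p-value of each siRNA against siC. From these folds and p-values, only the members the authors called and their signs were taken.

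Samples were grouped by title. Counts were filtered with filterByExpr (13395 of 23368 symbols kept), scaled by TMM (factors 0.980 to 1.02) and fitted with edgeR 4.0.16 (glmQLFit, glmQLFTest; R 4.3.3), with a mean per group over the 8 libraries, 4 residual degrees of freedom and no block. The common dispersion was 0.00166. Contrasts were each siRNA against siC, their average against siC, and each pair of siRNAs, with Benjamini-Hochberg adjustment over all tested genes and a threshold of 0.05. SE is |log2 fold change| over the square root of F. Library medians add 0.5 counts before the log. The fit was tested on simulated counts with 200 changed genes. That is far fewer than were called in these data, so the simulation does not cover change on this scale. The members, the further lists and the tests were chosen with earlier results of these data known. Values in every library were given for members called against siC with at least 1.5-fold and for HSPA5, XBP1, ATF4 and DDIT3, and up to 4 genes with the smallest p in the average were named from each further list.

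Reads of genes with close copies or overlapping neighbours are uncertain, since their counting is not given: HSP90B3P and PDIA3P have rows of their own, and the RefSeq spans of 7 members (HSP90B1, CANX, PDIA3, PDIA6, SYVN1, DERL2 and DDIT3) overlap another gene of the table. As alternatives, scaling used DESeq2's size factors or only the library sizes, the filter was dropped or tightened (at least 1 CPM on average and 50 counts summed), the test was DESeq2 1.42.0 or limma-voom (limma 3.58.1), and the design had the replicate number as a block or only the groups compared, and each library was left out in turn. Promoter windows were searched in Python 3.11.15.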

Additional observations from a re-analysis of the deposited data

Results flagged for a closer look

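These 5 members were called in opposite directions against siC with different siRNAs, and the test between those siRNAs also passed. HSPA5 differed by 0.47 on the log2 scale for siE1 minus siE2. CANX differed by -0.33 for siE1 minus siE2 and by -0.34 for siE1 minus siE3, and SEL1L by -0.59 for siE1 minus siE2. EDEM1 differed by -0.97 for siE1 minus siE3 and by -0.74 for siE2 minus siE3. ASNS differed by -0.67 for siE1 minus siE3 and by -0.63 for siE2 minus siE3. For EDEM1 the opposite calls against siC passed in every set with a library left out, while for HSPA5, CANX, SEL1L and ASNS at least 1 of them did not. How far the siRNAs' effects on transcripts other than ESRRA account for this was not tested.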

How the results depend on the processing

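With a library left out, the members called numbered 16 to 24 with siE1, 26 to 31 with siE2 and 10 to 16 with siE3, the 10 arising without siC replicate 1. The average gave 18 to 23, siE1 against siE2 26 to 30, siE1 against siE3 16 to 22 and siE2 against siE3 23 to 25. The chaperone median ranged from 0.149 to 0.202 with siE1, 0.239 to 0.283 with siE2, 0.0605 to 0.108 with siE3 and 0.163 to 0.198 in the average. The ATF4-CHOP median ranged from -0.150 to 0.0649 with siE1, -0.165 to -0.0967 with siE2, 0.0460 to 0.272 with siE3 and -0.0593 to 0.0421 in the average. With library size only, the chaperone median was 0.30 with siE2 and 0.20 in the average, and with the stricter filter 0.19 with siE1 and 0.28 with siE2; the cause was not tested. Of 92 calls against siC, 60 held with every library left out and 83 under every other setting; of 76 between siRNAs, 59 and 69 did. No called value changed sign.

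With the replicate number as a block, 24, 28 and 16 members were called with siE1, siE2 and siE3, 19 in the average, and 28, 20 and 23 between the siRNAs. Differences between replicates 1 and 2 correlated across 11445 genes with r of 0.301 for siE1 and siE2, -0.302 for siE1 and siE3, -0.310 for siE1 and siC, -0.272 for siE2 and siE3, -0.284 for siE2 and siC and 0.224 for siE3 and siC, so the numbers as labelled did not meet the bar for pairing. All 6 would be positive with the numbers of siE1 and siE2 exchanged; the labels give no such pairing, none was fitted, and whether libraries shared a batch across groups was not tested. With 2 libraries a group, each gene had only 4 residual degrees of freedom of its own. The edgeR fit moderates each gene's spread by that of the other genes, so the p-values rest partly on that borrowing. Members under 10 CPM, STC2 above all, are limited by their counts.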
